A study of Rattus norvegicus with 12 samples.

Results

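Kidneys of rats given anti-miR-182, an inhibitor of the microRNA miR-182, were compared with kidneys of rats given placebo, at day 2 after ischemia-reperfusion injury (IRI). The arrays were chosen by the treatment and day in the sample titles: 3 anti-miR-182 arrays and 3 placebo arrays, which are 6 of the 12 arrays of the series. The other 6 arrays hold the same treatments at day 7 and entered the fit only to estimate the spread of each gene. The standard error (SE) after each ± uses this fitted spread, pooled over all 12 arrays and moderated across genes. It is not the SE of the 3 arrays of each day 2 group alone, and it can hide an array that stands apart. Every rat had been injured, so no group stands for healthy kidney. Each array carried total RNA from kidney tissue, and the titles give a different animal code for each. A description label calls the samples zero-hour biopsies, against the day in the titles. The sources used here do not give the kind of inhibitor, its dose and time, or the strain, sex and age of the rats. The arrays are called treated kidney 1, 2 and 3 and placebo kidney 1, 2 and 3, and their values are given in that order as log2 signals, so that 1 unit is a doubling.

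Ischemia-reperfusion interrupts and then restores the blood supply of the kidney, and it is a standard model of acute kidney injury. Injured tubule cells lose transport genes, switch on injury genes such as Havcr1 and Lcn2, and divide to replace lost cells. MiR-182 is made from a cluster with miR-96 and miR-183 and holds down messenger RNAs that pair with its seed, the bases near its 5′ end, and an anti-miR is an oligonucleotide that binds a microRNA and blocks it.

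The mature microRNAs of the cluster are shown because miR-182 is the target of the treatment and its neighbours serve to compare it. Sequences are those of RefSeq on the rat assembly GRCr8, 5′ to 3′, and capitals mark the seed, bases 2 to 8.
rno-miR-182: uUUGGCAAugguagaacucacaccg
rno-miR-96-5p: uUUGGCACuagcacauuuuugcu
rno-miR-183-5p: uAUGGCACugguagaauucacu
They lie on the minus strand at chr4:59752249-59752273, chr4:59755901-59755923 and chr4:59756106-59756127, in that order. No seed is identical to another, but those of miR-182 and miR-96-5p differ only in their last base. The hairpin of Mir182 at chr4:59752246-59752307 is shown with the mature microRNA in capitals. Which form of it the Mir182 row of this whole-transcript array picks up is not stated.
Mir182 hairpin: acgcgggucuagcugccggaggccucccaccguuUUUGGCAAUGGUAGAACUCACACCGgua

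The Mir182 row was higher, not lower, in the kidneys given the inhibitor. The log2 signals were 6.42, 6.21 and 6.57 in the treated kidneys and 4.84, 4.48 and 4.69 in the placebo kidneys. Every treated kidney lay far above every placebo kidney, and treated kidney 3, which stands apart in many other genes, did not differ from its group here. The difference was 1.73 ± 0.24 (SE, n = 3 per group), or 3.31-fold, and had an adjusted p of 0.0771 in limma. Across 13 alternative settings in which Mir182 was tested the adjusted p ranged from 0.00577 to 0.703 and the difference from 1.64 to 1.82. The neighbours did not share the pattern. Mir183 was measured at 4.09, 4.13 and 4.14 against 4.09, 4.12 and 4.05, a difference of 0.03 ± 0.11 that changed sign after quantile normalization (-0.07). Mir96, at 4.82, 4.54 and 4.37 against 4.46, 5.25 and 4.94, differed by -0.31 ± 0.18, with overlapping groups.

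Over all genes, 0 of 18166 passed an adjusted p under 0.05 in limma (0%), and at an unadjusted p under 0.05 there were 1201 genes. Of these, 763 were higher under anti-miR-182 (4.2% of all genes) and 438 were lower (2.41%). In 1465 genes (8.06%) all 3 treated kidneys lay above all 3 placebo kidneys, and in 770 genes (4.24%) all lay below. The median difference over all genes was 0.033, with 10669 genes above 0 and 7497 below. An exact two-sided permutation test of 3 arrays against 3 cannot give a p under 0.1. All genes and lists below are therefore described by their values: none of the genes named in this text passed in the limma fit with equal weight for all arrays, and where "p under 0.05" is written without more, it is the unadjusted p.

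The treated kidneys differed more among themselves than the placebo kidneys did. The median SD of a gene was 0.179 in the treated group and 0.112 in the placebo group, and 70.1% of genes had the larger SD in the treated group. Correlations between arrays over all genes were 0.9777 to 0.9861 within the treated group and 0.9919 to 0.9939 within placebo. The lowest of them joined treated kidneys 1 and 3, which lay at opposite ends of the first principal component of the 6 arrays (-20.6 and 30.6), with treated kidney 2 at -0.3 and the placebo kidneys between -9.7 and 1. On the second component the treated kidneys lay at 18.9, 2.6 and 11 and the placebo kidneys at -4.8, -11.3 and -16.3. A gene was counted as apart on an array when its value there was more than 0.5 beyond all other 5 arrays. Treated kidney 3 was above the others in 169 genes and below in 324. Treated kidney 1 was above in 55 genes and below in 154, and treated kidney 2 above in 50 and below in 16. Each placebo kidney was apart in 6 to 11 genes above and 13 to 25 below. Treated kidney 3 was thus not the only array to stand apart, and treated kidney 1 lay away from the others in the opposite direction on the first component.

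**Figure D1:**
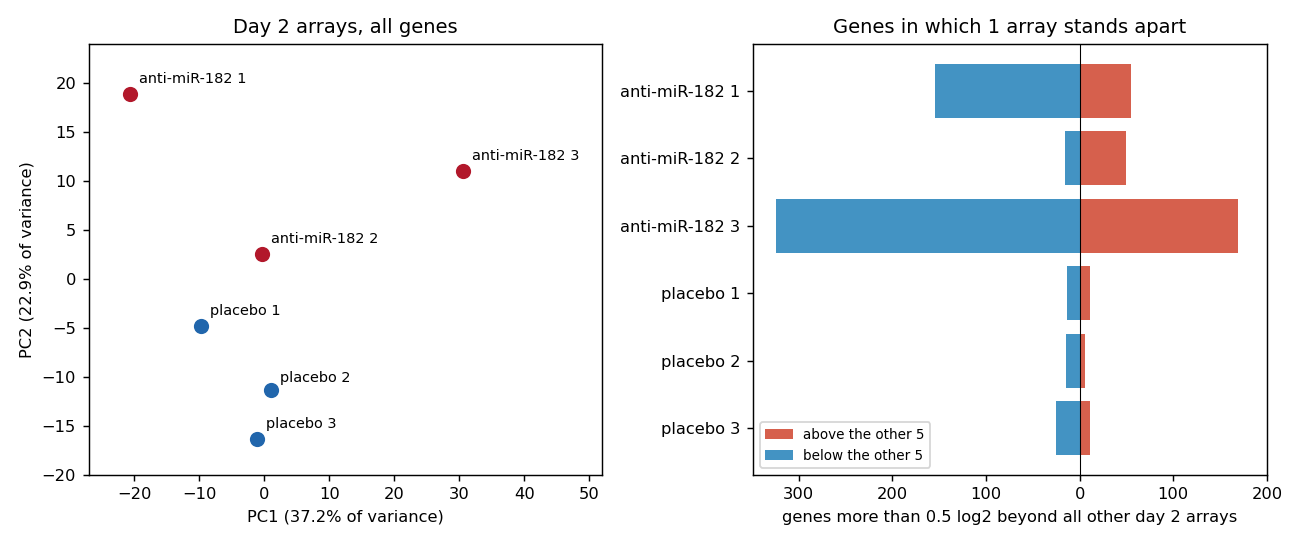
Left, the 6 day 2 arrays on the first and second principal components of all genes (37.2% and 22.9% of the variance); right, for each array, the number of genes whose log2 signal lies more than 0.5 above (red) or below (blue) all other 5 arrays. Treated kidney 3 lies at 30.6 on the first component and is apart in 169 genes above and 324 below, and treated kidney 1 lies at the other end, at -20.6.

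Treated kidney 3 was far below the other arrays in several injury genes and above them in another set of genes, all chosen because this kidney stood apart in them. Its Lcn2 signal, for a lipocalin released by injured tubules, was 7.33, while the other 5 arrays lay between 9.90 and 10.40. The signals of Clu, which encodes the chaperone clusterin, were 11, 10.43 and 9.03 in the treated kidneys and 11.07, 10.52 and 10.95 in the placebo kidneys. Slc34a2, a phosphate transporter, was at 7.96 in that kidney and lay 1.56 below the nearest other array, and the RNA-binding protein gene Ybx3 lay 1.37 below. The same kidney was the highest of the 6 in Slc22a22, an organic anion transporter of the proximal tubule, at 11.01 against 8.46 to 8.86. Among further genes in which it led were the coagulation factor F13b (by 1.54), the annexin Anxa13 (by 1.34), the carboxylesterases Ces2h (by 1.21) and Ces1e (by 1.17) and the peptidase Folh1 (by 1.10). Without this kidney the group differences of F13b, Ces2h, Ces1e and Folh1 changed sign, from 0.21, 0.38, 0.33 and 0.36 to -0.58, -0.14, -0.29 and -0.19.

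Treated kidney 1 was low in genes of the proximal tubule and high in genes of the distal nephron. These genes were chosen after their values were seen. Slc34a3, a phosphate transporter of the proximal tubule, was at 6.48 there and 1.06 below the nearest other array. The glucose transporter Slc5a2 had 7.86, 9.21 and 9.18 in the treated kidneys and 8.81, 8.96 and 9.17 in the placebo kidneys. For Slc5a12, a lactate transporter, the values were 10.44, 11.87 and 12 against 11.37, 11.76 and 11.58. In both transporters treated kidney 1 was the lowest of all and the other treated kidneys were at or above the placebo range. In the opposite direction, Slc12a3, the thiazide-sensitive sodium chloride transporter of the distal convoluted tubule, was at 10.21, 9.39 and 8.73 in the treated kidneys and at 9.04, 9.09 and 9.09 in the placebo kidneys. The kallikrein Klk1, secreted by the connecting tubule, had 11.16, 9.96 and 10.40 against 10.39, 9.53 and 9.33. Treated kidney 1 was the highest array for both.

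The tissue label was checked against markers of the kidney. Umod of the thick ascending limb (11.34 to 11.95), Slc12a1 of the same segment (10.5 to 10.9), Slc34a1 of the proximal tubule (10.1 to 10.5), Slc12a3 (8.7 to 10.2), Aqp2 of the collecting duct (7.1 to 8.0) and Nphs1 of the podocyte (6.9 to 7.2) each had a signal within those ranges on all 6 arrays. In whole tissue, fewer cells of a type and less RNA per cell cannot be told apart.

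Among genes higher in the treated kidneys, several belong to vessels and connective tissue. Tek, the receptor for angiopoietins on endothelial cells, had 9.64, 9.28 and 9.42 in the treated kidneys and 8.71, 8.58 and 8.67 in the placebo kidneys. The groups were well apart, and the difference of 0.79 ± 0.15 (SE, n = 3 per group), 1.73-fold, had an adjusted p of 0.444 in limma. With 1 array left out at a time it lay between 0.69 and 0.88. Depp1, a FOXO-driven gene linked to autophagy, had 7.73, 7.22 and 7.52 against 6.71, 6.65 and 6.69, a difference of 0.81 ± 0.18. The placebo kidneys were close to each other, and every treated kidney lay well above them. Vegfd, a growth factor for lymphatic vessels, had 7.91, 7.37 and 7.56 against 6.98, 7.07 and 7.06 (0.57 ± 0.14). The matrix protein gene Dpt, dermatopontin, had 10.43, 10.33 and 10.45 against 9.67, 9.75 and 9.87 (0.64 ± 0.12, adjusted p = 0.444 in limma). In Dpt the 3 treated kidneys were close to each other, and treated kidney 3 was not apart.

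The wider endothelial list did not move as far as Tek. Of 32 measured genes of the endothelium and the angiopoietin and VEGF axis, 25 were higher and 7 lower, with a median of 0.10 against 0.033 over all genes. Tek was the 1 member with a p under 0.05 (4.2% of all genes were higher at that p). It was also the 1 member whose groups did not overlap (8.06% of all genes lay above). Vegfd, whose groups did not overlap either, was not on this list. The angiopoietins Angpt1 (-0.04) and Angpt2 (0.06), ligands of Tek, the VEGF receptor Flt1 (0.30) and the junction gene Cdh5 (0.08) had no p under 0.05. The list's mean level relative to all genes was 0.65, 0.40 and 0.32 in the treated kidneys and 0.41, 0.34 and 0.39 in the placebo kidneys, so that only treated kidney 1 lay above the placebo range. Its median was 0.01 without treated kidney 1, with 16 genes higher and 16 lower, and 0.17 without treated kidney 3, with 28 higher and 5 genes at a p under 0.05. Without treated kidney 3 the count higher at that p over all genes went from 763 to 1098. Markers of fibroblasts and matrix were split, with 14 of 28 higher, 14 lower and a median of -0.02, which was 0.06 without treated kidney 3 and -0.10 without treated kidney 1. Collagen I, Col1a1, differed by 0.07 ± 0.18 (SE, n = 3 per group). Among the 12 small leucine-rich proteoglycans and dermatopontin, 7 were higher and 5 lower, with a median of 0.07, and Dpt was the 1 member with a p under 0.05 (4.2% of all genes).

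Further genes with the smallest p among those higher were of mixed kinds. Krtap13-2, a keratin-associated protein of hair, had 5.21, 5.25 and 5.14 against 4.38, 4.55 and 4.48, a difference of 0.73 ± 0.12 (SE, n = 3 per group) with an adjusted p of 0.198 in limma. Slc9a4, a sodium and proton exchanger, had 7.89, 7.92 and 7.80 against 7.29, 7.43 and 7.45 (0.48 ± 0.11). Fam180a differed by 0.60 ± 0.13 and Pitpnm3, a phosphatidylinositol transfer protein gene, by 0.44 ± 0.10. The largest gap between groups after Mir182 was that of Dnase1, an endonuclease of the tubule that digests DNA, with 9.51, 9.11 and 9.91 against 8.48, 8.29 and 8.20. The lowest treated kidney exceeded the highest placebo kidney by 0.63 there, and the mean difference was 1.19 ± 0.35, or 2.28-fold. Among the 15 genes higher with the smallest p were also olfactory and vomeronasal receptor genes, such as Or52j3 (4.92, 5.08 and 5.12 against 4.60, 4.27 and 4.08) and Vom2r28 (3.62, 3.63 and 3.94 against 3.13, 3.13 and 3.18). Both had low signals, and the share of such genes is taken up with signal level below.

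**Figure D2:**
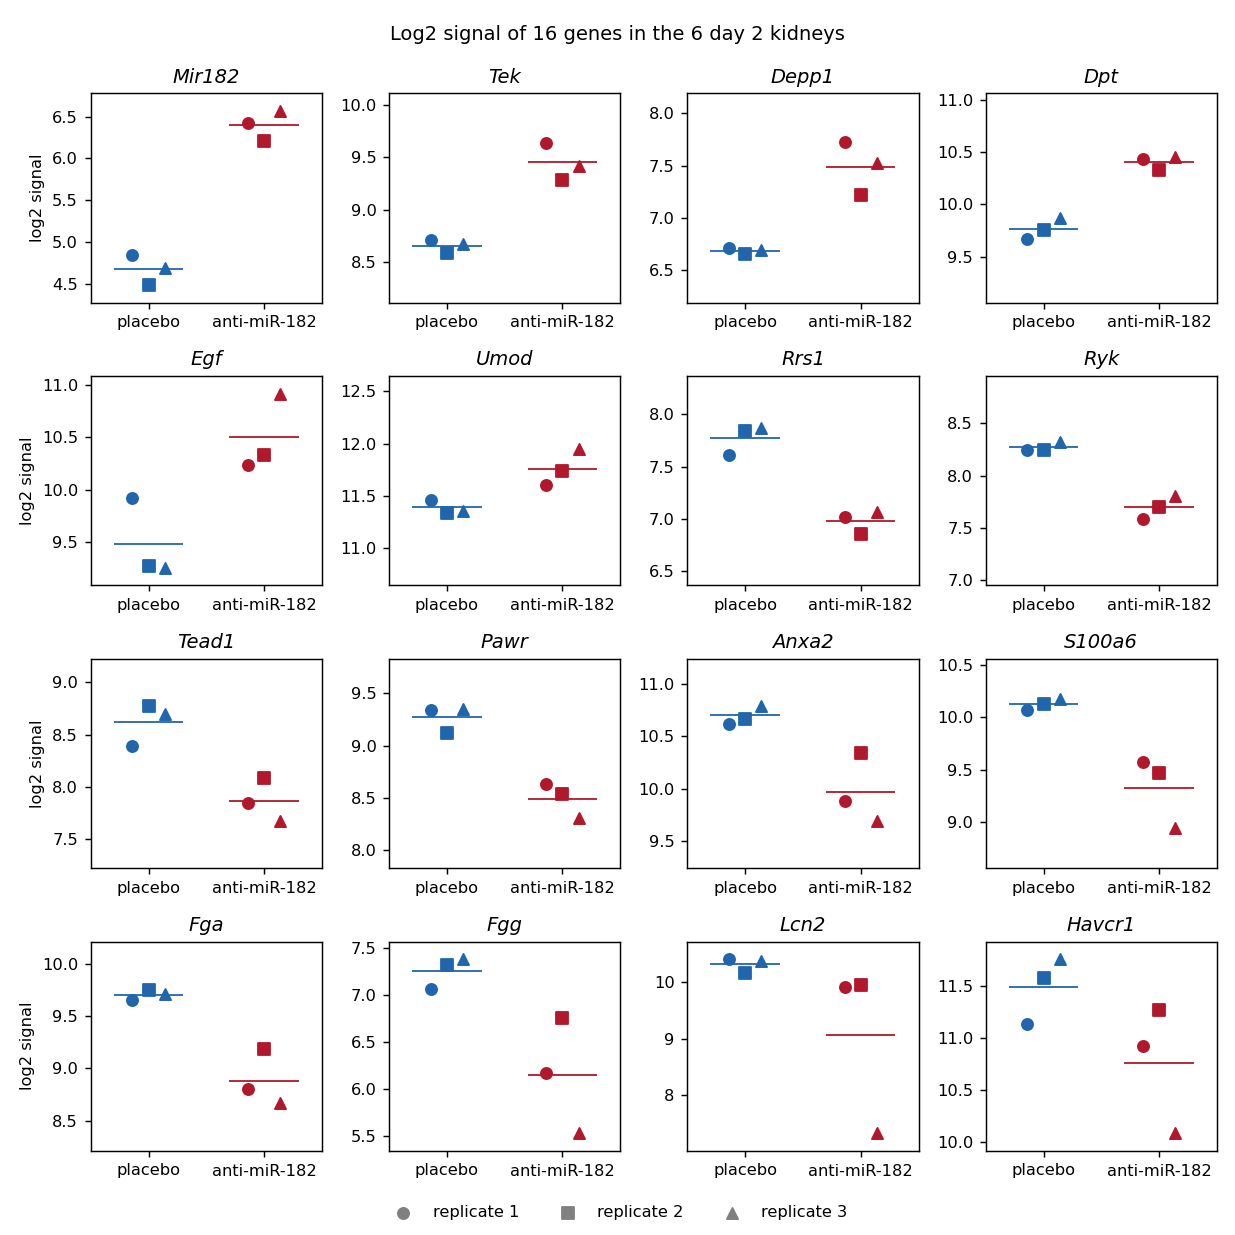
Log2 signal of 16 genes in the 3 placebo (blue) and 3 anti-miR-182 (red) kidneys of day 2, each panel with its own axis; the horizontal lines are group means and the marker shape is the replicate. In Mir182, Tek, Depp1, Dpt, Rrs1 and Ryk the replicates of a group lie together, while in Lcn2 the treated mean is pulled down by replicate 3 at 7.33.

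Egf and Umod, products of the distal nephron that injured kidneys are known to lose, were higher in the treated kidneys. Egf, the epidermal growth factor precursor, had 10.24, 10.33 and 10.92 in the treated kidneys and 9.92, 9.27 and 9.25 in the placebo kidneys. The difference was 1.02 ± 0.34 (SE, n = 3 per group), and 0.80 without treated kidney 3, which had the highest value. Umod, which encodes uromodulin, had 11.60, 11.74 and 11.95 against 11.46, 11.34 and 11.36 (0.37 ± 0.15). The groups did not overlap in either gene.

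The segments of the distal nephron lay higher as lists. Of 21 genes of the distal convoluted and connecting tubule, 18 were higher and 3 lower, 4 had a p under 0.05, all of them higher (4.2% of all genes), and in 5 the treated kidneys lay above all placebo kidneys (8.06% of all genes). The median was 0.21 against 0.033 over all genes, and it stayed between 0.133 and 0.276 over the settings and left-out arrays tried. Its mean level relative to all genes was 2.24, 1.95 and 2.06 in the treated kidneys and 1.86, 1.88 and 1.85 in the placebo kidneys, with no overlap. Kcnj10, a potassium channel of the distal convoluted tubule, had 6.80, 6.69 and 7.05 against 6.38, 6.27 and 6.06 (0.61 ± 0.17, SE, n = 3 per group). The calcium-binding protein Pvalb had 4.82, 4.78 and 4.83 against 4.47, 4.45 and 4.49, so that each group was narrow. The sodium and calcium exchanger Slc8a1 had 8.09, 7.55 and 8.61 against 7.34, 7.74 and 7.50, and its groups overlapped.

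Intercalated cells, which move acid and base in the collecting duct, showed 17 of 20 genes higher and 3 lower, with 4 at a p under 0.05 (4.2% of all genes) and a median of 0.19. The median was 0.098 without treated kidney 1 and 0.327 without treated kidney 3. The count was 6 without treated kidney 2, and 2 without treated kidney 1, placebo kidney 2 or placebo kidney 3. Over all genes the count higher, 763, became 532, 1097, 526 and 429 in these cases, in that order. Atp6v0d2, a subunit of the proton pump, had 10.83, 10.32 and 10.70 in the treated kidneys and 10.20, 10.30 and 10.04 in the placebo kidneys. The chloride and bicarbonate exchanger Slc26a4, pendrin, had 9.58, 8.95 and 8.88 against 8.70, 8.58 and 8.55, and its relative Slc26a7 had 5.52, 5.31 and 5.54 against 4.94, 5.02 and 4.93. In all 3 genes the groups did not overlap, although treated kidney 2 came within the reach of placebo for Atp6v0d2. The list's mean levels were 1.94, 1.5 and 1.60 against 1.58, 1.51 and 1.39, so here the arrays did overlap and treated kidney 1 was the highest. The principal cells of the collecting duct had 13 of 20 genes higher and a median of 0.11, with 1 gene at a p under 0.05 (4.2% of all genes). That gene was Sgk1, the aldosterone-induced kinase, with 9.43, 9.57 and 9.69 against 8.67, 9.13 and 9.33 (0.52 ± 0.17, SE, n = 3 per group). Without treated kidney 3, 18 of the 20 were higher and 4 had a p under 0.05, when the count higher over all genes went from 763 to 1098.

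The thick ascending limb was less uniform than Umod alone would show. Of 17 genes 12 were higher and 5 lower, with a median of 0.07, which was -0.01 without treated kidney 1. Egf and Umod are on this list, as is Oxgr1, a receptor for oxoglutarate, at 9.28, 8.68 and 9.01 against 8.73, 8.36 and 8.25. Cldn19, a claudin of tight junctions, went the other way at 8.51, 8.20 and 7.07 against 9.01, 8.45 and 8.29 (-0.66 ± 0.29, SE, n = 3 per group, and -0.23 without treated kidney 3). Without treated kidney 3, 0 genes of the list had a p under 0.05 in limma. Of 17 podocyte genes 11 were higher and 6 lower, with a median of 0.02 that was -0.003 after centring.

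Proximal tubule genes separated treated kidneys from each other rather than from placebo. Their mean level relative to all genes was 2.84 in treated kidney 1, below the placebo range, and 3.36 and 3.45 in treated kidneys 2 and 3, above it, with placebo kidneys at 3.23, 3.26 and 3.19. Of 38 genes 22 were higher and 16 lower, with a median of 0.05. Without treated kidney 1 the median was 0.20 and 31 genes were higher, and without treated kidney 3 it was -0.07 and 25 were lower. Slc34a1, the main phosphate transporter of the segment, differed by -0.15 ± 0.21 (SE, n = 3 per group). Slc22a2, an organic cation transporter, was the 1 member with a p under 0.05 (4.2% of all genes), at 10.62, 10.62 and 11.14 against 10.43, 10.36 and 10.14. Mitochondrial lists went with the proximal tubule list in treated kidneys 1 and 3, but not in treated kidney 2, which lay within the placebo range in them. For 31 genes of fatty acid oxidation the mean level was 2.49, 2.80 and 2.98 against 2.74, 2.86 and 2.76, with 16 genes higher and 15 lower. For 27 genes of the respiratory chain it was 3.56, 3.71 and 4 against 3.68, 3.82 and 3.72, with 17 higher, 10 lower and a median of 0.05. In both, treated kidney 1 was the lowest array and treated kidney 3 the highest, and the medians without kidney 1 and without kidney 3 lay on opposite sides of 0 (0.10 and -0.09 for fatty acid oxidation, 0.19 and -0.07 for the respiratory chain).

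**Figure D3:**
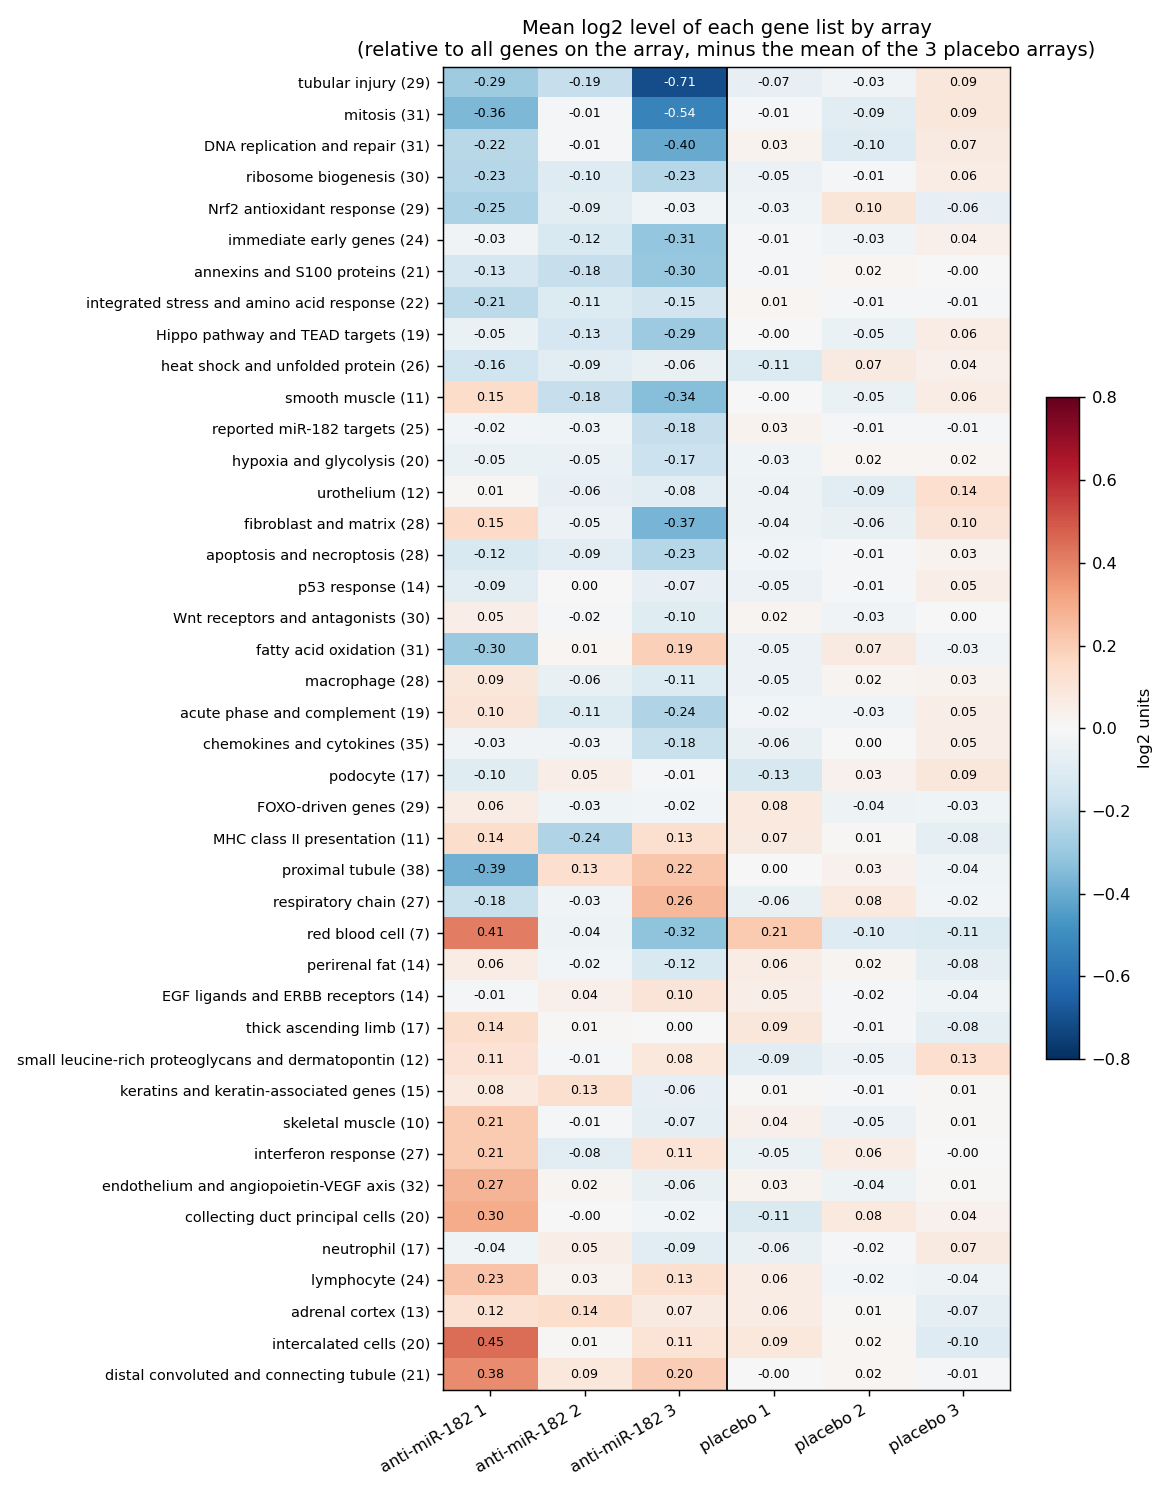
Mean log2 level of 42 gene lists in each day 2 array, relative to all genes on that array and minus the mean of the 3 placebo arrays, with list sizes in brackets; blue is lower and red higher. Tubular injury genes are lower in all 3 treated kidneys and lowest in kidney 3, distal convoluted and connecting tubule genes are higher in all 3, and proximal tubule genes are low in kidney 1 and high in kidneys 2 and 3.

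Genes switched on by injured tubules were lower in the treated kidneys. Of 29 tubular injury genes 22 were lower and 7 higher, with a median of -0.35. Of them 10 had a p under 0.05, all lower, against 2.41% of all genes. Most of the list is of bright genes, among which lower genes at that p were commoner. They numbered 202 of the brightest 4542 genes and 168 of the next 4541, against 29 of the dimmest 4542. In 8 genes of the list the treated kidneys lay below all placebo kidneys, and in 2 above them. Mean levels relative to all genes were 1.79, 1.89 and 1.37 in the treated kidneys and 2.01, 2.05 and 2.17 in the placebo kidneys. Each treated kidney lay below each placebo kidney, and kidney 3 was far below the other treated kidneys. Without treated kidney 3, 21 of the 29 were still lower, 5 had a p under 0.05 and the median was -0.17. Without placebo kidney 3, 6 had a p under 0.05. Over all genes the count lower, 438, became 399 without treated kidney 3 and 259 without placebo kidney 3.

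The classical markers differed mainly through treated kidney 3. Lcn2 had 9.90, 9.95 and 7.33 in the treated kidneys and 10.40, 10.16 and 10.36 in the placebo kidneys, a difference of -1.25 ± 0.55 (SE, n = 3 per group) that was -0.38 without treated kidney 3. The gene Havcr1, which encodes kidney injury molecule 1, had 10.92, 11.27 and 10.08 against 11.13, 11.58 and 11.76 (-0.74 ± 0.33, and -0.40 without treated kidney 3). Its groups overlapped, while those of Lcn2 did not. The SD of Lcn2 was 1.5 in the treated kidneys and 0.13 in the placebo kidneys, a contrast that the pooled SE does not show. Spp1, osteopontin, had 12.05, 12.05 and 11.13 against 12.02, 12.09 and 12.22, so that treated kidneys 1 and 2 were at the placebo level. The intermediate filament gene Vim had 10.42, 10.52 and 9.34 against 10.71, 10.71 and 10.88 (-0.67 ± 0.26, and -0.30 without treated kidney 3).

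The injury genes Anxa2, S100a6 and Cd44 were low in all treated kidneys. Kidney 3 was the lowest in each, but less far from the others than in Lcn2. Anxa2, a calcium-dependent membrane-binding protein, had 9.88, 10.34 and 9.69 in the treated kidneys and 10.62, 10.67 and 10.79 in the placebo kidneys (-0.72 ± 0.16, SE, n = 3 per group, and -0.59 without treated kidney 3). S100a6, a small calcium-binding protein, had 9.57, 9.47 and 8.94 against 10.07, 10.13 and 10.18 (-0.80 ± 0.23, and -0.61 without treated kidney 3). The hyaluronan receptor Cd44 had 7.09, 7.51 and 6.66 against 7.65, 7.68 and 8.05 (-0.70 ± 0.22, and -0.49 without treated kidney 3). In these genes no treated kidney reached the placebo range. Of 21 annexins and S100 proteins, 16 were lower and 5 higher with a median of -0.09, 5 had a p under 0.05 (2.41% of all genes) and in 7 the treated kidneys lay below all placebo kidneys (4.24% of all genes). The median was -0.183 without treated kidney 2, -0.195 without the dimmest 25% of genes and -0.025 with array weights. Without placebo kidney 3, 3 had a p under 0.05, when the count lower over all genes went from 438 to 259. S100a16, at 5.80, 5.38 and 5.55 against 6.18, 6.16 and 5.90, and Anxa3 (-0.50) were among the 5 with all arrays.

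The 3 chains of fibrinogen, the clotting protein that the liver makes and that injured tubules are known to make as well, were lower together. Fga had 8.80, 9.18 and 8.67 in the treated kidneys and 9.65, 9.75 and 9.71 in the placebo kidneys. Fgb had 8.30, 9.16 and 7.86 against 9.35, 9.13 and 9.62, and Fgg had 6.17, 6.75 and 5.53 against 7.06, 7.32 and 7.38. Treated kidney 2 was the highest and kidney 3 the lowest of the treated kidneys for each chain, and for Fgb kidney 2 lay just above the lowest placebo kidney. The differences were -0.82 ± 0.23, -0.93 ± 0.30 and -1.10 ± 0.35 (SE, n = 3 per group), so that placebo was 1.77, 1.90 and 2.15 times as high. With each array left out in turn Fga stayed between -0.97 and -0.72. The acute phase and complement list, which shares the liver programme of fibrinogen, had 10 of 19 genes higher and 9 lower, with a median of 0.02. This median was -0.059 after quantile normalization, and -0.119 and -0.139 without the dimmest 25% and 50% of genes. Complement C3 had 7.10, 7.19 and 6.15 against 7.71, 7.58 and 7.51 (-0.78 ± 0.45).

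Promoters of the fibrinogen chains are shown because the 3 genes lay lower together. Fibrinogen is known as an acute phase protein whose promoters answer interleukin-6 through STAT3. The sequences are the 250 bases before each RefSeq start on GRCr8, read on the strand of the gene. Capitals mark TTCNNNGAA, a core that STAT factors bind, which is its own reverse complement and so was searched on both strands at once.
Fga promoter: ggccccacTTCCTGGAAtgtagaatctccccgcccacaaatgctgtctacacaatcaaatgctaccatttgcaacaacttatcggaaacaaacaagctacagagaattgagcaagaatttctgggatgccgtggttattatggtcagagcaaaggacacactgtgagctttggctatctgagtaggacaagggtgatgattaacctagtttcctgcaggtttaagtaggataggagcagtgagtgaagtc
Fgb promoter: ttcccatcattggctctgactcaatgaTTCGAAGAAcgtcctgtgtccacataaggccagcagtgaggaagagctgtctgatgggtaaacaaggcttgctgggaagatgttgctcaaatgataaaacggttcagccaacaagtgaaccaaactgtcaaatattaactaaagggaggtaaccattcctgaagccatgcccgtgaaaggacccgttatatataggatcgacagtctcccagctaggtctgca
Fgg promoter: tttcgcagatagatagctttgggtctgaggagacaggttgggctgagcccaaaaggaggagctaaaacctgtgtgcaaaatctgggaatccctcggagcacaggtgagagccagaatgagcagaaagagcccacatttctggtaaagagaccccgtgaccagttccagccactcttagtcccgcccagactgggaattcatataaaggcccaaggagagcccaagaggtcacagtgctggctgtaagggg
They lie at chr2:170671919-170672168 on the plus strand, chr2:170700876-170701125 on the minus strand and chr2:170652833-170653082 on the plus strand. The motif begins 242 bases before the start in Fga and 223 in Fgb, and these letters are not in the window of Fgg. No other form of the site was searched, so Fgg cannot be said to lack one. Of 27457 promoter windows of this length 2066 (7.52%) hold it. A match is a description of the letters, and binding was not measured.

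The genes lower with the smallest p or the widest gap between groups were of several kinds, with Anxa2 as the 1 member of the tubular injury list among the 15 smallest p. Rrs1, a regulator of ribosome assembly, had 7.02, 6.86 and 7.07 in the treated kidneys and 7.61, 7.84 and 7.87 in the placebo kidneys, a difference of -0.79 ± 0.13 (SE, n = 3 per group) with an adjusted p of 0.241 in limma. Ryk, a receptor for Wnt ligands, had 7.58, 7.70 and 7.80 against 8.24, 8.24 and 8.32 (-0.57 ± 0.11). In both genes treated kidney 3 was the highest of its group, the reverse of its place in injury genes. Tead1, the DNA-binding partner of the Hippo effector Yap1, had 7.85, 8.09 and 7.68 against 8.39, 8.77 and 8.70 (-0.74 ± 0.15). The pro-apoptotic gene Pawr had 8.63, 8.54 and 8.31 against 9.34, 9.12 and 9.35 (-0.78 ± 0.16). Gstp1, a glutathione transferase, had 8.07, 8.64 and 8.34 against 9.02, 9.60 and 9.13 (-0.90 ± 0.20). The groups were apart in all of these. Pak1ip1, which acts in ribosome assembly, had 6.60, 6.62 and 6.74 against 7.14, 7.14 and 7.15. Named for their gap, the stress-linked gene Niban1 had 7.25, 7.39 and 7.08 against 7.95, 7.99 and 7.98, and Irak4, a kinase of interleukin-1 and Toll-like receptor signalling, had 7.23, 7.23 and 6.91 against 7.77, 7.73 and 7.85. In these 3 genes the placebo kidneys were nearly equal.

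Genes of ribosome assembly lay lower as a list. Of 30 genes 27 were lower and 3 higher, 3 had a p under 0.05 (2.41% of all genes) and in 6 all treated kidneys lay below all placebo kidneys (4.24% of all genes), with a median of -0.16. Without treated kidney 2, 8 had a p under 0.05, when the count lower over all genes went from 438 to 793. The median was -0.11 without treated kidney 1, -0.097 without treated kidney 3 and -0.098 with array weights. Besides Rrs1, the nucleolar genes Nop2 (7.60, 7.76 and 7.33 against 7.91, 7.92 and 7.92) and Nop58 (9.20, 9.36 and 9.22 against 9.49, 9.50 and 9.64) had a p under 0.05. The list's mean levels of 1.10, 1.23 and 1.10 lay below those of placebo at 1.28, 1.32 and 1.39. Here treated kidneys 1 and 3, which are opposite in the proximal tubule lists, were alike.

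Cell division genes lay lower as a list in treated kidneys 1 and 3, while the list mean of kidney 2 was at the placebo level. Of 31 mitosis genes 30 were lower and 1 higher, with a median of -0.24, and 3 had a p under 0.05 against 2.41% of all genes. That count was 19 without treated kidney 2, and 1 without treated kidney 3 or without placebo kidney 3. Mean levels were 1.44, 1.79 and 1.26 in the treated kidneys and 1.79, 1.71 and 1.89 in the placebo kidneys, so that kidney 2 lay within the placebo range. The median was -0.43 without treated kidney 2 and -0.13 without treated kidney 3. Aurkb, a kinase of chromosome segregation, had 6.90, 7.46 and 6.75 against 7.90, 7.57 and 7.65 (-0.67 ± 0.19, SE, n = 3 per group). Cyclin A2, Ccna2, had 8.06, 8.33 and 7.93 against 8.43, 8.48 and 8.59, and the proliferation marker Mki67 differed by -0.22 ± 0.21. Of 31 genes of DNA replication and repair 25 were lower and 6 higher, with a median of -0.17 that was -0.36 without treated kidney 2 and -0.05 without treated kidney 3. The 3 genes at a p under 0.05, all lower (2.41% of all genes), became 13 and 1 in those cases. Over all genes the count lower, 438, became 793 and 399. Ddias, a gene that protects dividing cells from apoptosis after DNA damage, had 5.89, 5.86 and 5.69 against 6.27, 6.48 and 6.50 (-0.60 ± 0.13). Brca1, a DNA repair gene, had 6.17, 6.51 and 6.11 against 6.97, 6.46 and 6.84 (-0.49 ± 0.17), and its groups overlapped through kidney 2.

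Reported targets of miR-182 did not lie higher under its inhibitor. Of 25 such genes 9 were higher and 16 lower, with a median of -0.04 against 0.033 over all genes, and 0 of those higher had a p under 0.05. The transcription factors Foxo1 (8.14, 8.12 and 7.75 against 8.24, 8.04 and 8.12) and Foxo3 (7.91, 7.85 and 7.41 against 7.85, 7.67 and 7.85) differed by -0.13 ± 0.12 and -0.06 ± 0.13 (SE, n = 3 per group). In both genes treated kidney 3 was the lowest of all arrays. Without it the median of the list was 0.02, with 14 genes higher and 11 lower, and Foxo3 differed by 0.09. The 2 targets with a p under 0.05 were lower (2.41% of all genes): Brca1, and Cited2, a transcriptional co-regulator, with 8.12, 8.27 and 7.88 against 8.50, 8.47 and 8.37 (-0.35 ± 0.11). The p53-induced autophagy gene Tp53inp1 was at 8.01, 8.32 and 8.62 against 7.98, 8.08 and 8.13. Of 29 FOXO-driven genes 18 were higher and 11 lower, with a median of 0.03. Depp1 and Tek were higher, and Pdk4, a kinase that slows glucose oxidation, was at 7.07, 7.53 and 7.13 against 8.62, 7.28 and 8.02 (-0.73 ± 0.27).

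**Figure D4:**
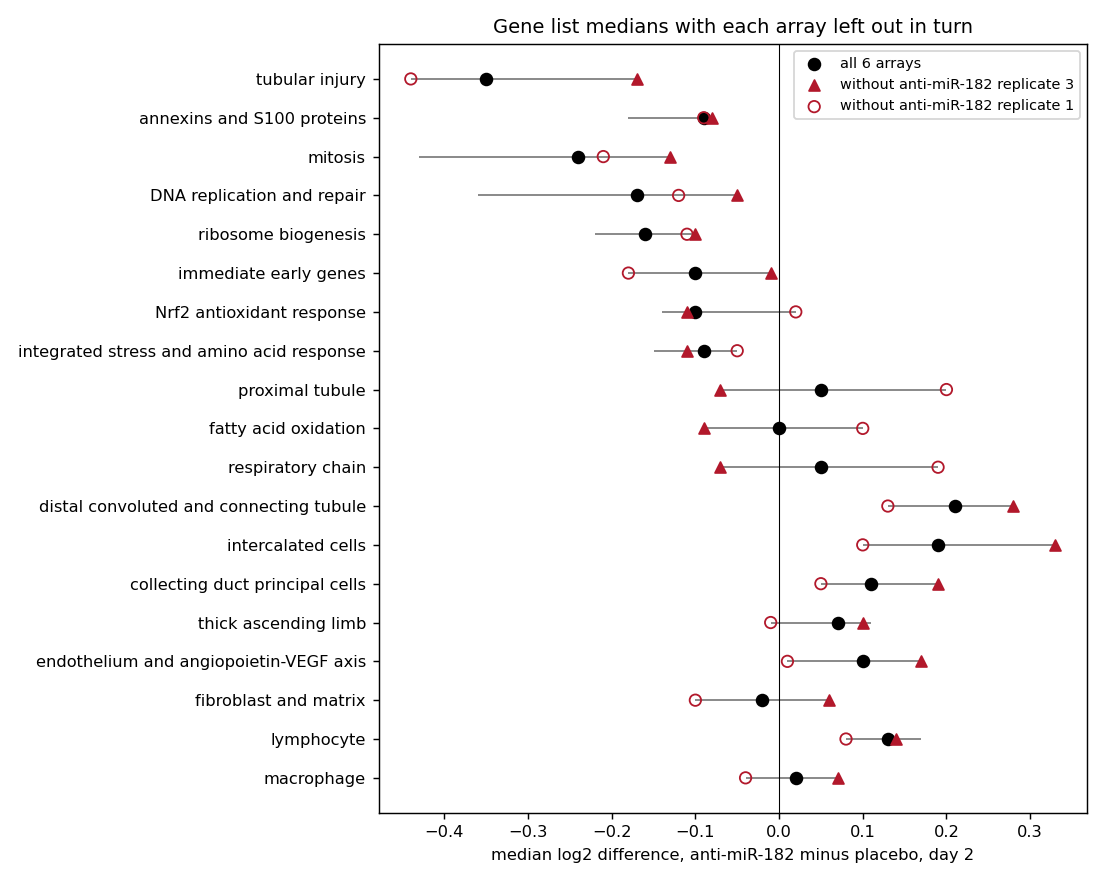
Median log2 difference (anti-miR-182 minus placebo, day 2) of 19 gene lists: black points use all 6 arrays, the grey line spans the values with each array left out in turn, triangles leave out treated kidney 3 and open circles treated kidney 1. Tubular injury runs from -0.44 to -0.17 and distal convoluted and connecting tubule from 0.13 to 0.28, while proximal tubule, fatty acid oxidation and the respiratory chain lie on both sides of 0.

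Stress and death pathways mostly leaned lower by small amounts. Of 28 apoptosis and necroptosis genes 12 were higher and 16 lower, with a median of -0.02. The 3 with a p under 0.05 were lower (2.41% of all genes). That count was 6 without treated kidney 2, when the count lower over all genes went from 438 to 793. Besides Pawr the 3 genes were Ripk3, the kinase of necroptosis, at 6.40, 6.54 and 6.05 against 6.73, 7.06 and 7.25 (-0.68 ± 0.20, SE, n = 3 per group), and the tumour necrosis factor receptor Tnfrsf1a, at 7.49, 7.52 and 6.50 against 7.84, 7.70 and 7.75. Treated kidney 3 was the lowest in both, and without it Tnfrsf1a differed by -0.26. Of 14 p53 response genes 7 were higher and 7 lower, with a median of -0.01 and a difference of 0.01 ± 0.13 (-0.01 after centring) in Cdkn1a, the cell cycle inhibitor p21. Of 29 Nrf2 antioxidant genes 21 were lower and 8 higher with a median of -0.10, which was 0.02 without treated kidney 1. Hmox1, heme oxygenase 1, went against that list at 7.13, 7.12 and 6.69 against 6.40, 6.41 and 6.61 (0.50 ± 0.15). Treated kidney 3 was nearest to placebo there, and without it Hmox1 differed by 0.65.

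Other stress lists had no more than 2 members at a p under 0.05, against 4.2% of all genes higher and 2.41% lower. Heat shock and unfolded protein genes numbered 26, with 19 lower and 7 higher and a median of -0.06. Of 22 genes of the integrated stress and amino acid response 17 were lower and 5 higher, with a median of -0.09. Asns, which makes asparagine, had 7.27, 7.27 and 6.70 against 7.79, 7.43 and 7.42. Of 20 hypoxia and glycolysis genes 12 were lower and 8 higher, with a median of -0.04. Egln1, the oxygen-sensing prolyl hydroxylase, had 8.24, 8.46 and 7.64 against 8.73, 8.61 and 8.61. Of 24 immediate early genes 18 were lower and 6 higher, with a median of -0.10 that was -0.01 without treated kidney 3. Jund, an AP-1 subunit, had 6.74, 6.84 and 6.90 against 7.27, 7.25 and 7.19 (-0.41 ± 0.10, SE, n = 3 per group), with kidney 3 nearest to placebo.

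In the Hippo pathway and its TEAD targets 13 of 19 genes were lower and 6 higher, with a median of -0.08 that was -0.005 without treated kidney 3, when 11 were lower and 8 higher. With Tead1, the receptor kinase Axl (7.87, 7.78 and 6.87 against 8.29, 7.98 and 8.20) and Fjx1 (6.65, 6.75 and 6.23 against 7.05, 6.81 and 6.95) had a p under 0.05, all lower (2.41% of all genes). Without treated kidney 3, 1 lower and 1 higher gene of the list did, and without placebo kidney 1, 1 lower. For those 2 targets treated kidney 3 was lowest, and without it Axl differed by -0.33 and Fjx1 by -0.24. Ryk is on the list of Wnt receptors and antagonists, of which 15 of 30 were higher and 15 lower, with a median of -0.01 that was 0.07 without treated kidney 3. At a p under 0.05 this list had 1 gene lower, Ryk (2.41% of all genes), and 1 higher, the ligand Wnt7b (4.2% of all genes). Wnt7b was at 5.78, 6.04 and 5.64 against 5.49, 5.51 and 5.45. Among 14 EGF ligands and ERBB receptors 9 were higher and 5 lower, with a median of 0.06 that was -0.029 after quantile normalization, and the ligand Nrg1 lay lower at 7.35, 7.81 and 7.43 against 7.96, 7.92 and 7.74.

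Immune cell markers differed little. Of 28 macrophage genes 17 were higher and 11 lower, with a median of 0.02. Of them 0 had a p under 0.05 in limma, against 4.2% of all genes higher and 2.41% lower. Cd68, a lysosomal protein of macrophages, differed by -0.32 ± 0.30 (SE, n = 3 per group). Of 17 neutrophil genes 12 were higher and 5 lower, with a median of 0.11. The 1 member with a p under 0.05 was Lcn2, which was lower (2.41% of all genes) and which injured tubules also make. Of these 17 genes 14 were in the dimmest 25% of all genes, and S100a8 was at 5.09 to 5.55 on all arrays. Lymphocyte markers, 17 of 24 among the dimmest 50% of genes, had 19 higher and 5 lower and a median of 0.13. In 6 of them the treated kidneys lay above all placebo kidneys, against 8.06% of all genes and 12.8% of the dimmest 25%, among them the T cell gene Cd8b (6.06, 5.99 and 5.69 against 5.52, 5.53 and 5.43) and the B cell gene Ms4a1 (5.61, 5.80 and 5.44 against 5.33, 5.06 and 5.26). MHC class II genes, 11 in all, had 7 higher and 4 lower and a median of 0.03 that was -0.008 after quantile normalization.

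Secreted signals were mixed. Of 35 chemokines and cytokines 20 were higher and 15 lower, with a median of 0.02 that was -0.035 after quantile normalization. Cxcl12, which attracts leukocytes and progenitor cells, had 9.54, 8.90 and 9.31 in the treated kidneys and 8.98, 8.63 and 8.57 in the placebo kidneys. Il24, an interleukin-10 family cytokine, had 6.36, 6.70 and 5.76 against 6.90, 7.38 and 7.77 (-1.08 ± 0.49, SE, n = 3 per group). The groups overlapped in Cxcl12 and not in Il24. Ccl2, the monocyte attractant, differed by -0.43 ± 0.25. Of 27 interferon response genes 22 were higher and 5 lower, with a median of 0.10. Oas2, an antiviral enzyme, was at 6.67, 6.11 and 6.39 against 5.99, 6.25 and 5.84, and Irf1, a transcription factor of the pathway, was lower at 7.67, 7.45 and 7.07 against 7.77, 7.74 and 7.76.

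Markers of tissues that a kidney sample can carry along were examined for all 6 arrays. Perirenal fat had 10 of 14 genes higher and a median of 0.06 (-0.02 after quantile normalization), with mean levels relative to all genes of -0.28 to -0.10 in the treated kidneys and -0.24 to -0.10 in the placebo kidneys. The fat markers were not of one direction: Lpl, lipoprotein lipase, differed by 0.48 ± 0.19 and Fabp4 by -0.50 ± 0.30 (SE, n = 3 per group). Urothelium had 5 of 12 higher, a median of -0.03 and levels of -0.74 to -0.65 against -0.75 to -0.52, and smooth muscle had 5 of 11 higher, a median of -0.05 and levels of 0.24 to 0.73 against 0.53 to 0.64. Skeletal muscle had 8 of 10 higher with a median of 0.08 (-0.001 after quantile normalization) and levels of -0.94 to -0.66 against -0.92 to -0.83. Red blood cell genes had 5 of 7 higher, a median of 0.05 and levels of -1.14 to -0.41 against -0.93 to -0.61. Treated kidney 1 was the highest and treated kidney 3 the lowest of all arrays in smooth muscle and red blood cell genes. The adrenal cortex list, 12 of 13 among the dimmest 50% of genes, had 12 higher and a median of 0.16, with levels of -1.38 to -1.31 against -1.52 to -1.39, and its defining gene Cyp11b1 was at 3.4 to 4.0. Keratins and keratin-associated genes had 9 of 15 higher and a median of 0.08. The part of these markers in the results above was not tested.

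The direction of a difference went with how bright a gene was. Genes were put into 4 groups of equal size by their mean signal over the 6 arrays, a grouping of rows by brightness and not of genes by abundance. In the dimmest 25% (2.19 to 5.53) the treated kidneys lay above all placebo kidneys in 12.8% of genes and below them in 1.39%. In the brightest 25% (7.75 to 13.22) the shares were 3.13% and 7.75%. Median differences ran from 0.095 in the dimmest group through 0.07 and -0.016 to -0.024 in the brightest. After quantile normalization within each day the dimmest group held 5.06% above and 4.73% below, with a median of 0.005, and the brightest 6.34% and 6.08%. Sensory receptor genes (olfactory, vomeronasal, trace amine and bitter taste receptors, a set of 1395 genes chosen after values were seen) lay above in 13% and below in 1.15%, and after quantile normalization in 6.95% and 3.58%. Lists of dim genes, such as those of lymphocytes and the adrenal cortex, stand in this range. After quantile normalization their medians were 0.079 and 0.073. The tubular injury, ribosome assembly and mitosis lists are mostly of bright genes, with 4 of 29, 5 of 30 and 1 of 31 in the 2 dimmest groups. The same holds for the reported miR-182 targets, with 4 of 25. For these lists the shares lower over all genes are a low reference, since lower genes were commoner among bright genes.

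**Figure D5:**
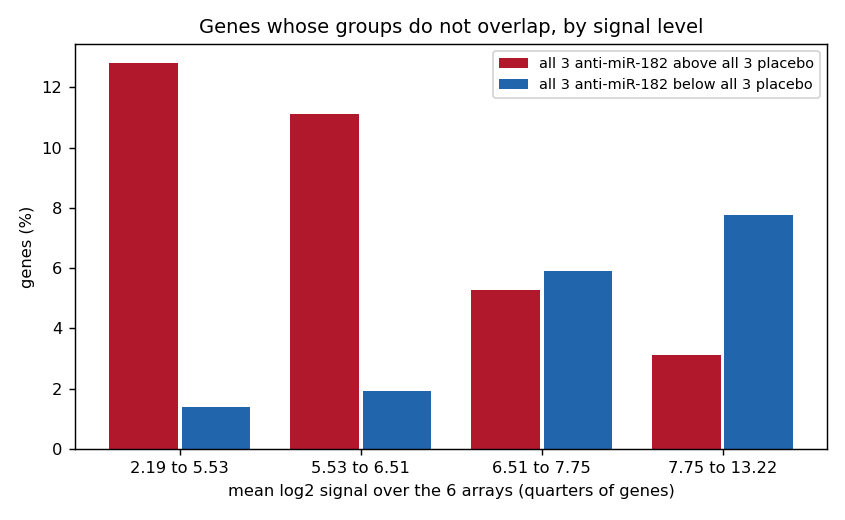
Percent of genes in which all 3 treated kidneys lie above (red) or below (blue) all 3 placebo kidneys, for 4 groups of equal size by mean log2 signal over the 6 arrays, in the deposited values. The share above is 12.8% among the dimmest genes and 3.13% among the brightest, and the share below goes from 1.39% to 7.75%.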

How the data were processed

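Total RNA from rat kidney was extracted with Trizol, and 200 ng per sample was amplified and labelled with biotin, per the labels' protocols. The authors deposited log2 signals, and the submitters' processing notes name RMA, which corrects background, normalizes arrays and sums up probes. Its version is not given in the sources used here. The table held 36685 rows. The annotation gave 1 symbol to 18511 rows, several to 575, and 17599 were not listed, which left 18166 genes, 291 of them with several rows, of which the brightest on average was kept. On the day 2 arrays 190 rows had no value. Values were used as deposited, and no array was left out.

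The fit, with limma 3.58.1 in R 4.3.3, had a mean for each of the 4 groups of the 12 arrays, and took the difference between the day 2 groups, with Benjamini-Hochberg adjustment over all genes and a threshold of 0.05. The number of arrays limits the precision. The p-values rest on a spread pooled over all 12 arrays and moderated across genes, not on that of the day 2 animals alone. Named genes were the 15 in each direction with the smallest p, the 10 in each direction with the largest gap between groups, the 8 in each direction in which treated kidney 3 was farthest from the others, up to 4 members a list by p, and set markers, leaving out uncharacterised loci. The 43 lists held 992 symbols, of which 884 list genes were measured, 6 under a synonym. The comparison, the members and the lists were chosen with earlier results of these data known. A list level is the mean log2 signal over its genes after subtracting the mean over all genes of that array.

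Alternatives were day 2 arrays alone, array weights, eBayes made robust or given a trend, quantile normalization within days, centring on the array median, leaving out the dimmest 25% or 50% of genes, the mean of a gene's rows, an adjusted p under 0.1 and each day 2 array left out in turn. Every row of the table, counts of non-overlapping genes under these settings and the shares by signal level under other scalings were added after seeing the data. The fit was tested on simulated data: for the day 2 comparison of 18166 genes with 200 changed, log2 differences of 0.5, 1 and 2 were recovered in 10.2%, 87.6% and 99.5% of cases. The simulated noise was normal, independent between genes and of the same SD in every group. The wider spread of the treated kidneys (median SD 0.179 against 0.112) and arrays that stand apart were not simulated, so these shares may be too high for the real data.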

Additional observations from a re-analysis of the deposited data

How the results depend on the processing

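The count of genes past the adjusted threshold, 0 with all 12 arrays in limma, was 1 with the day 2 arrays alone, with array weights and at an adjusted p under 0.1, and the gene was Mir182 each time. It was 0 under the other settings, with each array left out (0 to 0), and over 36495 rows of the table, annotated or not, where 1386 rows were higher and 759 lower at an unadjusted p under 0.05. Without the dimmest 25% or 50% of genes Mir182 was not among the genes tested, so the 0 there does not bear on it. Genes higher at an unadjusted p under 0.05, 763 in all, numbered 1307 with array weights, and 461 and 167 without the dimmest 25% and 50% of genes, where fewer genes were tested and the share of dim genes fell. With each array left out the count of genes higher ranged from 429 (without placebo kidney 3) to 1098 (without treated kidney 3), and that of genes lower from 259 (without placebo kidney 3) to 793 (without treated kidney 2). Genes whose treated kidneys lay above all placebo kidneys, 1465 in all, numbered 882 and 378 without the dimmest 25% and 50%. With an array left out they numbered 2148 to 3400, and those below 1227 to 2123, since fewer arrays overlap less often. Of the genes at an unadjusted p under 0.05, 63.5% were higher as deposited, 50.9% (523 against 505) after quantile normalization and 50.4% (634 against 625) after centring, and of the non-overlapping genes 65.5%, 53.9% and 53.7%. Beyond construction, the cause was not tested. Of 3076 values of 211 named genes under the alternatives 26 had the other sign, in 18 genes. Among the 39 genes named for their p or their gap between groups 0 did so. Of 642 list medians 60 had the other sign, in 24 of 43 lists, and most of those medians were near 0.

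No paired analysis was possible because the titles carry animal codes and no replicate numbers shared between the groups. With 3 animals a group, 10.2% of simulated differences of 0.5 on the log2 scale were recovered, so that differences of that size were rarely detectable here. RNA content, injury severity and the fate of the inhibitor were not measured on these arrays.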

Other observations

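The same treatment effect at day 7 was set beside that of day 2, from 3 other animals a group. In limma 0 genes passed for the difference between the days' effects, and 713 had an unadjusted p under 0.05. Slc9a4, an exchanger of sodium and protons, was higher by 0.48 at day 2 and lower by -0.52 at day 7, a difference between days of 1 ± 0.16 (SE, adjusted p = 0.284 in limma). Krtap13-2 had 0.73 and -0.25, a difference of 0.98 ± 0.17 (adjusted p = 0.334). The fibrinogen chains were lower at day 2 and higher at day 7: Fga differed by -0.82 and 0.82, Fgb by -0.93 and 0.87, and Fgg by -1.10 and 0.57. The differences between days were -1.65 ± 0.32 for Fga (adjusted p = 0.919), -1.80 ± 0.43 for Fgb and -1.68 ± 0.49 for Fgg, and none passed. Whether the days were normalized together is not given in the sources used here, but each effect is taken within its day.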
